A study of Mus musculus with 864 samples.

Results

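The FAM19A genes, also named TAFA, code for 5 small secreted proteins of the nervous system that are distantly related to chemokines. All 5 mouse genes, Fam19a1 to Fam19a5, were found by symbol among the 23281 genes of the table. Their RNA was measured in single cells of the lumbar dorsal root ganglion, which holds the cell bodies of the sensory neurons of the hindlimb. Of 799 wells described as holding a single cell, 694 had 1000 or more genes with a value above 0 and were kept. The cells came from C57/Bl6 mice of 6 to 8 weeks. For each sample 6 lumbar ganglia, from levels 4 to 6, were digested with papain and collagenase/dispase and cleaned on Percoll, and cells were picked by hand 48 at a time. Session A (male and female) and session B (male) were picked at room temperature, and session C (male and female) on a cooled stage. The labels name no animals, so a session and sex together, called a preparation, served as the replicate. P-values between the neuron groups below measure only how differences between groups varied over the 5 preparations. Those for cooling and sex measure only the spread between preparations. Values are RPM, a gene's reads in a cell scaled to the same total in every cell, from 5′-tag libraries without molecular identifiers, so a level is a share of a cell's reads.

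Family members were compared across 6 neuron groups, each set by a gate on 1 gene: Th for C-low-threshold mechanoreceptors, Mrgprd for nonpeptidergic nociceptors, Tac1 for peptidergic nociceptors, Pvalb for proprioceptors and related large neurons, and Calb1 and Htr3a, each with the neurofilament gene Nefh, for other myelinated neurons. The gates hold 391 cells: 36.8% of them in the Th gate, and 85 cells in the Mrgprd gate, 54 in the Tac1 gate, 53 in the Pvalb gate, 19 in the Calb1 gate and 36 in the Htr3a gate. Another 48 cells passed more than 1 gate, 210 other neurons passed none and 45 cells had more RNA of non-neuronal than of neuronal markers. As a check of the gates, marker lists were summed without the genes that set the gates. Nonpeptidergic markers summed to 1918 RPM in the Mrgprd gate and at most 447 RPM in the other 5. Peptidergic markers summed to 7507 RPM in the Tac1 gate, 2728 RPM in the Htr3a gate and at most 945 RPM in the other 4. Neurofilament-neuron markers summed to 8056, 5891 and 2545 RPM in the Pvalb, Calb1 and Htr3a gates and at most 784 RPM in the other 3. The Htr3a gate also held RNA of Calca, a gene of peptidergic neurons, at a mean of 2375 RPM over its cells. Median depth per kept cell was 15517.5 reads in session A males, 15597 in session A females, 198656.5 in session B, 1546911.5 in session C males and 2573229 in session C females. Depth, session and cooling therefore changed together, and cannot be told apart.

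FAM19A proteins are made as secreted precursors with a conserved pattern of cysteines, and bind neurexins, the presynaptic adhesion proteins, among other partners. In mouse ganglia FAM19A4 is known as a marker of C-low-threshold mechanoreceptors, unmyelinated touch neurons of hairy skin, and mice that lack it show stronger mechanical hypersensitivity after injury. Fam19a1 and Fam19a4 lie on the same chromosome, with their start sites 947 kb apart. The 250 bases before those starts are shown because Fam19a4 and Fam19a1 were the pair of members least alike in their levels across gates and preparations, as given at the end. They are RefSeq sequences of build GRCm38.p6, matched through older symbols for 5 of 5 members. Fam19a1 starts after chr6:96112904-96113153 on the plus strand, and Fam19a4 after chr6:97060412-97060661 on the minus strand. Capitals mark matches to the motifs TGTGGT (the core bound by RUNX factors), TATAAA (bound by the TBP protein), CCAAT (bound by NF-Y), CACGTG (an E-box) and GGGCGG (bound by SP factors) on either strand. The E-box letters read the same on both strands.
Fam19a4: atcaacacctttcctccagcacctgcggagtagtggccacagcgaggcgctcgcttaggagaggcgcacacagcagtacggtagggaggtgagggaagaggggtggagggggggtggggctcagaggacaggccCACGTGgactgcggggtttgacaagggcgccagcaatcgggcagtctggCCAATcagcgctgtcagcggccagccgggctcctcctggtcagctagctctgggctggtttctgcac
Fam19a1: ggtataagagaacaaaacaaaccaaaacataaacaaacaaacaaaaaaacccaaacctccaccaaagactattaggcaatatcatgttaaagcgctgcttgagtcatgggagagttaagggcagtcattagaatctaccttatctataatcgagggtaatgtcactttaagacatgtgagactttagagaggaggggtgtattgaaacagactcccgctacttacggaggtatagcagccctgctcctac
The Fam19a4 window held CCAAT and CACGTG, found in 33.8% and 6.02% of 32851 promoter windows of that length, and the Fam19a1 window held none of the 5 motifs. TGTGGT occurs in 14.0% of the windows, TATAAA in 12.4% and GGGCGG in 32.7%. The Fam19a4 window had 13 CG pairs and a GC content of 65.2%, and the Fam19a1 window 4 pairs and 40.8%. The other windows had 6 CG pairs in Fam19a2, 6 in Fam19a3 and 48 and 38 at the 2 starts of Fam19a5, against a median of 6 over all windows. These letters describe the windows and give no account of the levels that follow.

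Fam19a4 was the main FAM19A gene of the Th gate. Its mean level was 571 RPM in session A males, 381 in session A females, 1309.6 in session B, 584 in session C males and 582 in session C females. Every one of these was above the highest Fam19a4 mean of any other gate, 94.8 RPM in the Tac1 gate of session B. Averaged over preparations the level was 685 ± 359 RPM (SD, n = 5) in the Th gate, 54.2 ± 43.9 (n = 3) in the Tac1 gate, 37.5 ± 24.9 (n = 5) in the Mrgprd gate, 8.87 ± 10.2 (n = 5) in the Pvalb gate, 8.44 ± 3.78 (n = 2) in the Htr3a gate and 1.87 ± 2.81 (n = 3) in the Calb1 gate. The ranges of the Tac1, Mrgprd, Pvalb and Htr3a gates overlapped, and that of the Calb1 gate overlapped the Pvalb gate only. On the log2(mean RPM + 5) scale the Th gate was higher than the mean of the other 5 gates by 5.52 ± 0.44 (SE; limma adjusted p = 2.7e-11; higher in 5 of 5 preparations), a scale that understates changes of low genes. The Calb1 gate was lower by a log2 difference of -2.98 ± 0.53 (limma adjusted p = 0.000305), and the Pvalb gate by -1.43 ± 0.44 (limma adjusted p = 0.0271), a call lost in 11 of 19 alternatives. In all, 2 of 5 members were called in the Th gate, where 8.84% of the 9829 genes tested were called, and edgeR called 1 of 5. The other limma call was Fam19a1, given below.

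**Figure D1:**
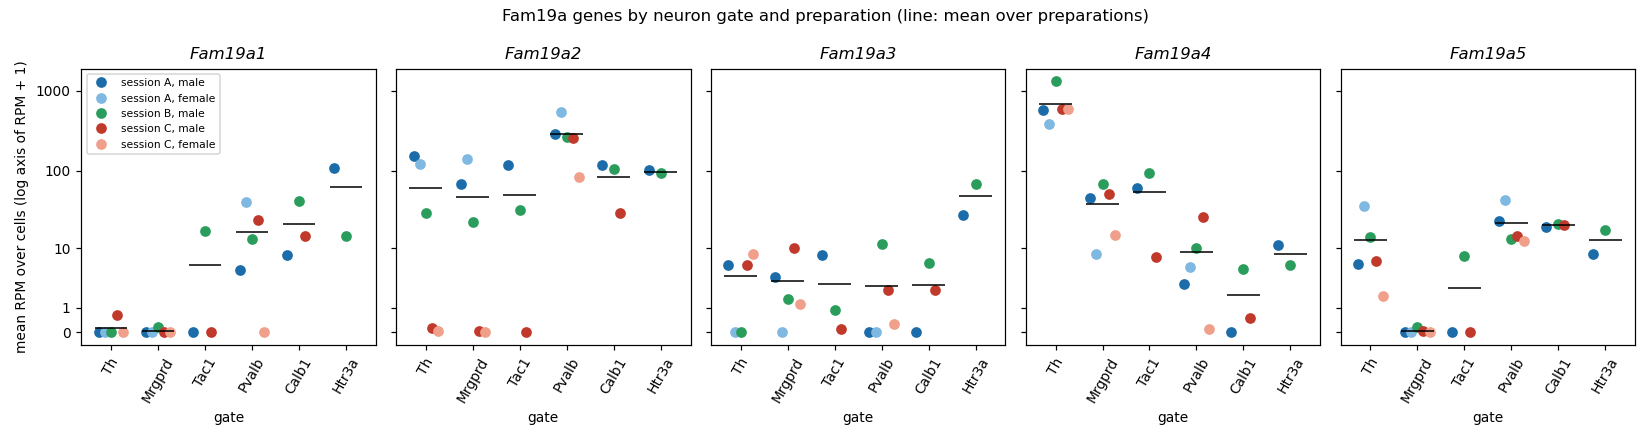
Mean RPM of each FAM19A gene over the cells of a gate (log axis of RPM + 1), 1 point per preparation with 3 or more cells, and a line at the mean over preparations. Fam19a4 in the Th gate lies between 381 and 1309.6 RPM in the 5 preparations, above every other gate, and Fam19a2 in the Th and Mrgprd gates falls near 0 in session C.

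Nearly every cell of the Th gate carried Fam19a4 reads. On all reads 97.9% of them had at least 1 (95% Wilson interval 94.1 to 99.3%), and intervals here cover counting error only. The 3 cells without a read were all from session A, the shallowest. With each cell thinned to 3000 reads the share was 77.5% in the Th gate, 7.06% in the Mrgprd gate, 5.77% in the Tac1 gate, 1.96% in the Pvalb gate and 2.78% in the Htr3a gate. In the Calb1 gate it was 0 of 17 cells, which at this depth allows a share of cells with a read of up to 17.6%. On all reads the share was 54.1% in the Mrgprd gate, 52.6% in the Calb1 gate, 37.04% in the Tac1 gate, 36.1% in the Htr3a gate and 26.4% in the Pvalb gate, so the cells of those gates were not free of Fam19a4 reads. Fam19a4 was the highest family member in 95.1% of the cells of the Th gate and took 89.8% of the summed family level there.
Within the gate the levels of Fam19a4 and Th had a Spearman's rho of -0.26 across its cells, a description across cells that share libraries and depth. Cells from the threshold of 866 RPM of Th up to 2 times that value had a mean of 796 RPM of Fam19a4. Cells outside all gates, with Th from 50% of the threshold up to it, had a mean of 877 RPM and reads in 27 of 31 cells. Schwann cell markers were also at their highest among the gates in the Th gate, with a summed level of 1558 RPM (1151 to 1850 over preparations, 0 of 5 markers at 0) against 4151 RPM in the non-neuronal cells. In those non-neuronal cells Fam19a4 averaged 51.1 ± 68.9 RPM (SD, n = 3), below the Th gate in each preparation.

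The other genes known for C-low-threshold mechanoreceptors were higher in the same gate. Of 12 genes listed besides Fam19a4 and Th, 11 had a row and all 11 were higher in the Th gate by limma, against 5.84% of all genes called higher. Their median log2 difference was 2.99, against 0.17 over all genes. Zfp521, a transcription factor gene, was higher by 4.26 ± 0.55 (limma adjusted p = 7.3e-07). Slc17a8, which codes for the vesicular glutamate transporter VGLUT3, was higher by 3.88 ± 0.46 (limma adjusted p = 1.5e-07). The receptor gene P2ry1 and the co-receptor gene Gfra2 were higher by 4.06 ± 0.46 and 2.99 ± 0.35. In the Pvalb gate 7 of 11 were lower, against 5.92% of all genes called lower. Of the same 11 genes, 4 were also higher and 2 lower in the Mrgprd gate, where 13.1% of all genes were called, and 2 were higher in the Tac1 gate, where 6.75% were.

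Fam19a2 had its highest mean level in the Pvalb gate but was detected across the ganglion. Its mean in that gate was 285 RPM in session A males, 540.4 in session A females, 266 in session B, 257 in session C males and 84.4 in session C females. The level over preparations was 287 ± 163.2 RPM (SD, n = 5) in the Pvalb gate, 97.2 ± 6.58 (n = 2) in the Htr3a gate, 83.6 ± 47.2 (n = 3) in the Calb1 gate, 60.9 ± 71.7 (n = 5) in the Th gate, 49.5 ± 60.4 (n = 3) in the Tac1 gate and 46.4 ± 59.7 (n = 5) in the Mrgprd gate. The last 5 overlapped each other, and the lowest Pvalb preparation overlapped all of them. Within preparations the Pvalb gate was higher than the other gates in 5 of 5, by 2.73 ± 0.43 on the log2 scale (limma adjusted p = 2.2e-05). Without preparation as a replicate block the difference was 2.55 and missed the threshold (limma adjusted p = 0.0963). Fam19a4, as given above, was the other member called there, so that 2 of 5 members were called in a gate with 12% of all genes called. Fam19a2 was the highest member in 47 of the 49 Pvalb-gate cells with any family read, and thinned cells held it in 41.2% there, 22.2% in the Htr3a gate and 5.88% to 15.4% in the other 4 gates. Satellite glia markers summed to 951 RPM in the Pvalb gate (0 to 2256 over preparations), 1006 RPM in the Calb1 gate and 1651 RPM in the Htr3a gate, and Fam19a2 in the non-neuronal cells was 34.9 ± 58.97 RPM (SD, n = 3). Their part in the result was not tested.

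**Figure D2:**
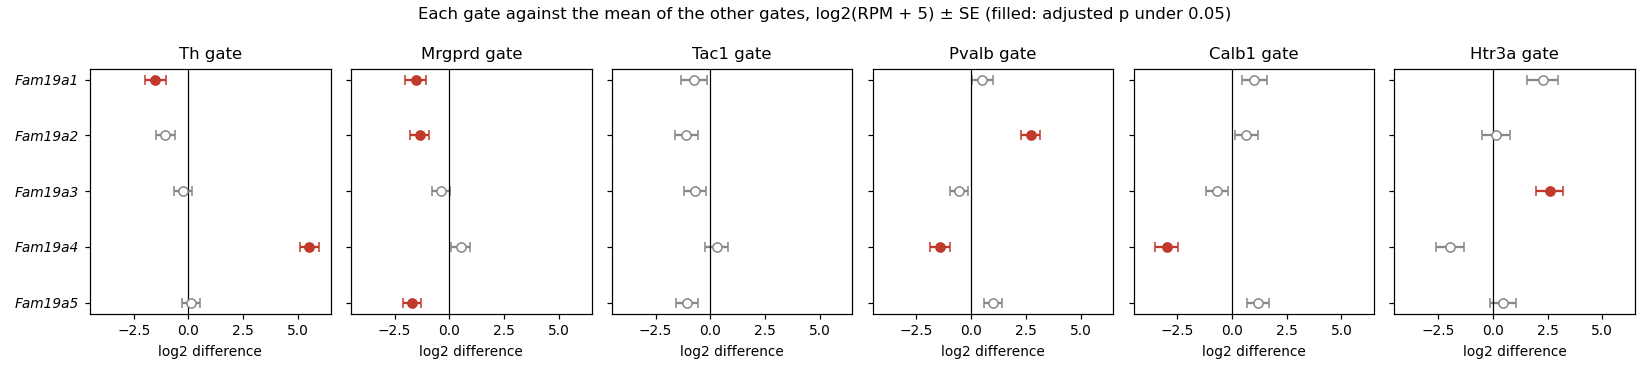
Log2 difference of each FAM19A gene in each gate against the mean of the other 5 gates, on log2(mean RPM + 5), with the standard error, and filled points where the limma adjusted p is under 0.05. Fam19a4 stands at 5.52 in the Th gate, Fam19a2 at 2.73 in the Pvalb gate and Fam19a3 at 2.59 in the Htr3a gate.

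The Mrgprd gate had the lowest summed FAM19A level of the 6 gates. Called members numbered 3 of 5, all lower, against 13.1% of all genes called there in either direction, and edgeR called 1 of 5. Fam19a5 was lower by a log2 difference of -1.72 ± 0.41 (limma adjusted p = 0.00309), Fam19a1 by -1.55 ± 0.48 (limma adjusted p = 0.0254) and Fam19a2 by -1.36 ± 0.43 (limma adjusted p = 0.0305). These calls were lost in 3, 9 and 12 of 19 alternatives. Fam19a5 had reads in 2 of 85 cells and Fam19a1 in 1 of 85. That sum was 87.2 RPM, against 763 RPM in the Th gate. Fam19a1 was also lower in the Th gate, by -1.52 ± 0.48 (limma adjusted p = 0.0404), a call lost in 10 of 19 alternatives, with reads in 2.78% of cells, all from session C males.

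Among the gates and on all reads, Fam19a1 was found most often in the neurofilament-rich Calb1, Htr3a and Pvalb gates, but not only there. It was above 0 in all 3 Calb1-gate preparations, at 8.04, 41.1 and 14.8 RPM in session A, B and C males, and in both Htr3a-gate preparations, at 108.5 RPM in session A males and 14.8 RPM in session B. In the Pvalb gate it was 4.96, 40.3, 13.4, 23.8 and 0 RPM in session A males, session A females, session B, session C males and session C females. These gates overlapped, and the Pvalb gate differed from the mean of the Calb1 and Htr3a gates by -0.96 ± 0.61 (limma adjusted p = 0.646). None of the 5 members was called in that comparison by limma, where 1.9% of all genes were, or by edgeR, although 2 had an unadjusted p under 0.05. Against all other gates the Htr3a gate was higher in Fam19a1 by 2.28 ± 0.70 in 2 of 2 preparations, which missed the threshold (limma adjusted p = 0.212). The value was 0.53 without session A males and 4.03 without session B. Reads were found in 11 of 19 Calb1-gate cells, 15 of 36 Htr3a-gate cells and 10 of 53 Pvalb-gate cells. In the Tac1 gate 3 of 54 cells had reads, all from session B. Their gate averaged 17.3 RPM in that session, above the Htr3a and Pvalb gates of the same session. Outside the gates 28 of 210 other neurons had reads.

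Fam19a3 was sparse, with its highest level among the gates in the Htr3a gate. Outside the gates 27 of 210 other neurons had reads, and those neurons averaged 31.4 RPM in session C females. Cells past several gates averaged 71.8 RPM in session A females, with reads in 1 of 4 cells. In the Htr3a gate Fam19a3 averaged 27.2 RPM in session A males and 67.9 RPM in session B, above the 11.4 RPM of the highest preparation of any other gate. The difference of 2.59 ± 0.62 passed the threshold (limma adjusted p = 0.0399; higher in 2 of 2 preparations), 1 call among 5 members in a gate with 0.468% of all genes called. Only these 2 preparations had 3 or more Htr3a-gate cells. The call was lost without session A males (adjusted p = 0.199), without session C males (adjusted p = 0.0642), with each cell thinned (adjusted p = 0.147) and with edgeR (adjusted p = 0.996).
Fam19a5 was low. On all reads it was found in 73.7% of Calb1-gate, 47.2% of Pvalb-gate, 19.4% of Htr3a-gate, 12.5% of Th-gate, 3.70% of Tac1-gate and 2.35% of Mrgprd-gate cells. Those shares were not taken at equal depth. Median depth was 802735 reads in the Calb1 gate, 55017.5 in the Pvalb gate and 52085.5 in the Htr3a gate. With each cell thinned, Fam19a5 had reads in 11.8% of Calb1-gate, 7.84% of Pvalb-gate, 2.78% of Htr3a-gate and 2.11% of Th-gate cells. Its level was 21.4 ± 12.9 RPM (SD, n = 5) in the Pvalb gate, 20.3 ± 0.842 (n = 3) in the Calb1 gate, 13.1 ± 6.59 (n = 2) in the Htr3a gate, 12.7 ± 13.4 (n = 5) in the Th gate, 2.57 ± 4.45 (n = 3) in the Tac1 gate and 0.0344 ± 0.0651 (n = 5) in the Mrgprd gate. The Pvalb, Htr3a and Th gates overlapped, and the Calb1 gate overlapped the Pvalb and Th gates but not the Htr3a gate. The Pvalb gate was at 1.01 ± 0.41 and the Calb1 gate at 1.19 ± 0.49 relative to the other gates, and both missed the threshold (limma adjusted p = 0.111 and 0.199). In the Calb1 gate the lower Fam19a4 was the 1 call among 5 members, against 4.7% of all genes. In the Tac1 gate limma and edgeR called 0 of 5 members, 2 had an unadjusted p under 0.05, and 6.75% of all genes were called.

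The Htr3a gate held 2 patterns of FAM19A expression. Dividing its 36 cells at 1000 RPM of Calca, which codes for the peptide CGRP, was chosen after the values were seen and is given without a test. No cell lay between 237.4 and 2442.6 RPM of Calca. All 12 Calca-high cells had Fam19a1, at 40.0 to 916 RPM with a mean of 245.5 RPM, against 3 of 24 Calca-low cells with a mean of 4.95 RPM. Fam19a3 had the opposite distribution, with reads in 13 of 24 Calca-low cells (mean 51.9 RPM) and 1 of 12 Calca-high cells (mean 2.15 RPM). The Calca-high cells came from 4 preparations, 9 of them from session A males. Ntrk2, which codes for the receptor of brain-derived neurotrophic factor, was found in 0 of 12 Calca-high cells and in 21 of 24 Calca-low cells. Median depth was 37647.5 reads in Calca-high and 55176 in Calca-low cells.
The same division was read in neurons outside the Htr3a gate, leaving out cells past several gates. Fam19a1 was found in 7 of 10 cells high in both Calca and Nefh, at a mean of 90.9 RPM. It was found in 3.88% of cells high in Calca alone, in 30.4% of cells high in Nefh alone and in 12 of 340 cells low in both. Fam19a3 had reads in 4 of 10 cells high in both, at a mean of 4.25 RPM. In cells high in Nefh alone 21.4% had Fam19a3 reads, at a mean of 13.2 RPM. The share with Fam19a3 reads was thus higher with Calca, the reverse of the Htr3a gate, while the mean was lower. The 10 cells came from 4 preparations and had a median depth of 645534 reads, deeper than the other 3 classes, at 72779, 168743 and 230838 reads.

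**Figure D3:**
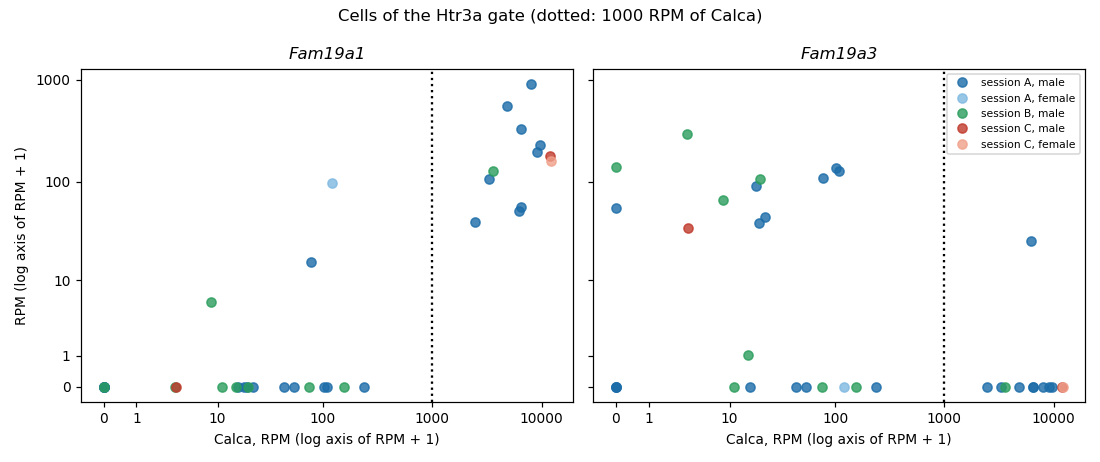
RPM of Fam19a1 (left) and Fam19a3 (right) against RPM of Calca in the 36 cells of the Htr3a gate, on log axes of RPM + 1, coloured by preparation, with a dotted line at 1000 RPM of Calca. All 12 cells right of the line have Fam19a1, and 13 of 24 cells left of it have Fam19a3.

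Few cells showed more than 1 family member once depth was set equal at 3000 reads, where low members are mostly missed. On all reads 49.9% of the 391 gated cells had 2 or more members. Thinned to 3000 reads, 5.74% of 383 cells did, and 49.6% had none. In the Calb1 gate the share with 2 or more went from 84.2% to 5.88%. At this depth 1 read stands for more RPM than the level over preparations of any member in any gate, except Fam19a4 in the Th gate. The thinned shares therefore cannot show whether members are rarely expressed together. Among thinned gated cells 0 of the 10 with Fam19a1 had Fam19a4, against 32.4% of those without, but among thinned neurons outside the gates 4 of 6 did, against 29.1%. Over all kept thinned cells the shares were 23.5% and 29.5%, and on all reads in the gated cells 45.5% and 64.6%. Of the thinned cells with Fam19a4, 9.09% also had Fam19a2, and of the 64 with Fam19a2, 17.2% also had Fam19a4. On all reads Fam19a5 was found in 27.1% of gated cells with Fam19a2 and 4.22% of those without, and in thinned cells in 4.69% and 2.19%. Control wells, empty or with medium only, had Fam19a2 in 6 of 32 and Fam19a4 in 3 of 32, and no read of the other members.

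**Figure D4:**
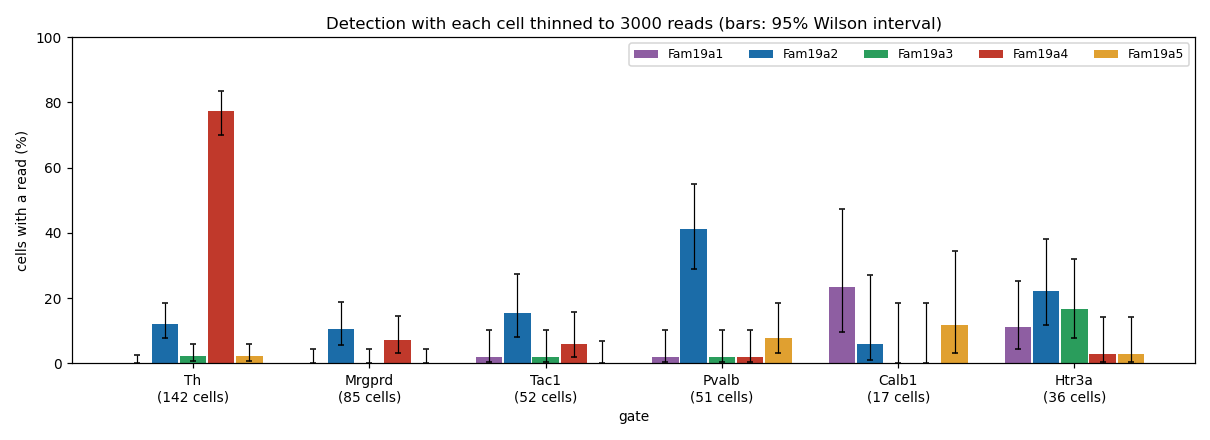
Share of cells with at least 1 read of each FAM19A gene in each gate after every cell was thinned to 3000 reads, with 95% Wilson intervals. Fam19a4 reaches 77.5% in the Th gate and Fam19a2 41.2% in the Pvalb gate, and the widest intervals belong to the 17 cells of the Calb1 gate.

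Fam19a2 was lower in the cooled session. In the Th gate it averaged 151.8 RPM in session A males, 123.2 in session A females and 29.2 in session B, but 0.116 in session C males and 0.0183 in session C females. The Mrgprd gate gave 68.8, 140.7 and 22.3 RPM at room temperature and 0.0232 and 0 RPM in the cooled session. Both gates separated completely by session, while in the Pvalb gate session C males (257 RPM) were close to session B (266 RPM) and session C females (84.4 RPM) were lower. Over the mean of the 3 gates with enough cells in every preparation, the cooled preparations were lower by a log2 difference of -3.09 ± 0.50 (limma adjusted p = 0.00568), with 2 residual degrees of freedom. That was 1 of 4 members tested, against 1.19% of 9684 genes called. The difference missed the threshold at -2.37 without session A females (adjusted p = 0.423), -4.05 without session C males (adjusted p = 0.185), -2.37 without session C females (adjusted p = 0.42) and -3.27 with thinned cells (adjusted p = 0.0732). Fam19a1, Fam19a4 and Fam19a5 stood at -0.22 ± 0.47, 0.18 ± 0.43 and -0.68 ± 0.44 and were not called, and Fam19a3 was too low in these gates to be tested.
Pvalb RNA in the Th gate was also lowest in the cooled session. Fam19a2 there was 53.4%, 22.8% and 10.9% of its Pvalb-gate level in session A males, session A females and session B, and 0.0450% and 0.0217% in session C males and females. Pvalb itself was 0.839%, 0.827% and 1.65% at room temperature and 0.0538% and 0.0103% in the cooled session. Pvalb sets a gate, so by rule every cell of the Th and Mrgprd gates lay below its threshold of 396 RPM. Its shares are held low by that rule, which does not act on Fam19a2 directly. Nefh was 3.09%, 1.70% and 4.22% at room temperature and 0.766% and 3.44% in the cooled session, which overlap. Among further neurofilament-neuron markers, Spp1 was 2.82%, 0% and 2.57% at room temperature and 0.428% and 0% in the cooled session. Slc17a7 was 3.92%, 0% and 2.26% against 0.353% and 0%, and both overlap. Vsnl1 was lower in the cooled session, at 1.40%, 1.16% and 6.27% against 0.236% and 0.0288%. In the Mrgprd gate Pvalb was again lowest in the cooled session, but Vsnl1 was highest in session C males, at 2.29%. Wells with medium or nothing had Fam19a2 in 4 of 9 in session A, 1 of 7 in session B and 1 of 16 in session C. The part of free RNA in the session difference was not tested. A test of the cooling difference in the Pvalb gate against that in the Th and Mrgprd gates, added after the data were seen, gave 2.87 ± 0.80 for Fam19a2 and missed the threshold (limma adjusted p = 0.554). It called 0 of 4 members, 1 with an unadjusted p under 0.05, and 0% of all genes, of which 830 had an unadjusted p under 0.05.
Between sexes limma called 0 of 4 members, 1 with an unadjusted p under 0.05, against 0.062% of all genes. Fam19a4 had the largest difference among them, with female preparations at -1.03 ± 0.50 relative to male ones (limma adjusted p = 0.776), in a fit with 1 residual degree of freedom.

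**Figure D5:**
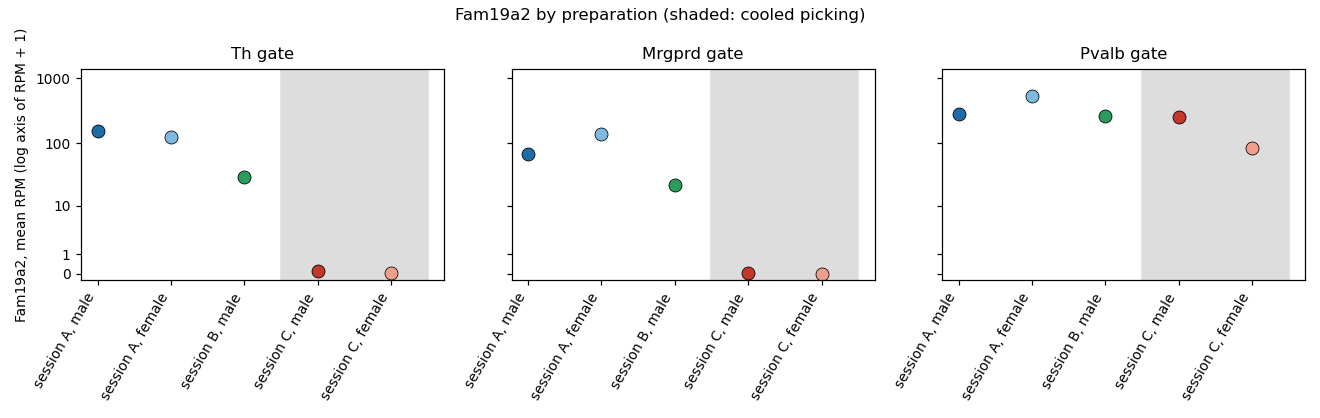
Mean RPM of Fam19a2 by preparation in the Th, Mrgprd and Pvalb gates (log axis of RPM + 1), with the cooled session shaded. The cooled preparations are near 0 in the Th and Mrgprd gates and at 257 and 84.4 RPM in the Pvalb gate.

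Genes with reported FAM19A binding partners as products had few differences between gates. Of 10 listed, 5 passed the filter on low values in the gate comparison, among them the neurexin genes Nrxn2 and Nrxn3, the endocytic receptor gene Lrp1 and the proteoglycan gene Sdc4. None of the 5 was called in the Th gate by limma, where 8.84% of all genes were. Nrxn3 was lower in the Mrgprd gate by -1.20 ± 0.33 (limma adjusted p = 0.0111) and in the Tac1 gate by -1.36 ± 0.40 (limma adjusted p = 0.0304), against 13.1% and 6.75% of all genes called in those gates. Nrxn2 and Nrxn3 stood at 112.4 ± 39.8 and 124.2 ± 34.1 RPM in the Th gate (SD, n = 5). Fpr1, which codes for a formyl peptide receptor, averaged 0.190 RPM in the Th gate and 0 in the other 5 gates.

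Likeness of pattern was measured as Pearson's r of log2(mean RPM + 5) over 23 gate-by-preparation means, which share libraries and depth, among 9828 other genes. The genes most like Fam19a4 were Bhlha9 (r = 0.90), Gm7271 (r = 0.90), Ccdc106 (r = 0.89), the sodium channel subunit gene Scn3b (r = 0.89) and Th (r = 0.89). Th sets a gate, so the rule that formed the groups bears on its r. By Spearman's rho Th ranked 84, against 4 for Gm7271 and 21 for Scn3b. Fam19a2 was most like the mitochondrial complex I gene Ndufa5 (r = 0.91), and Cdr1, Ggps1 and Vamp1 were also among the nearest, down to r = 0.80. Fam19a5 was most like the serotonin receptor gene Htr1d (r = 0.88), followed by Ckmt1, Mcam and Clstn3 down to r = 0.86. For Fam19a1 the nearest was Bet3l (r = 0.87), followed by Chpt1, Fgf18, Bcat1 and Pcdh7 down to r = 0.77. For Fam19a3 it was Slc6a19 (r = 0.77), and Nr4a2, Foxo1 and Htr3a were also among the nearest, down to r = 0.69. Htr3a sets a gate too, so the same rule bears on its r. By Spearman's rho Nr4a2, Foxo1 and Htr3a were at 0.42, 0.42 and 0.49, against 0.67 for Slc6a19. Foxo1 stood at 100.2 ± 141.7 RPM (SD, n = 2) in the Htr3a gate, so its r leans on few values. Between members r ran from -0.45 for Fam19a1 with Fam19a4 to 0.59 for Fam19a2 with Fam19a5.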

How the data were processed

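Single-cell RNA of 864 wells was measured. Per the submitters' processing notes the reads were mapped with Bowtie (version not given in the sources used here) to mouse build mm9, and the authors deposited RPM per gene and well. In 841 columns whole reads were recovered from the smallest step, with 99.6% of values whole within 0.1. The deposited values of 4 control wells were all whole and treated as a score of unknown scale, and 19 other RPM columns were used without claimed reads. Kept wells had 1000 or more genes above 0. A gate was passed at 10% of the 98th percentile of its gene, or 100 RPM if higher, and the Calb1 and Htr3a gates also needed Nefh. Means of 3 or more cells per gate and preparation gave 23 values, fitted on log2(mean RPM + 5) with limma 3.58.1 (R 4.3.3), trend and robust options, preparation as a replicate block and a low-value filter at 5 RPM averaged over those values. P-values were adjusted by Benjamini-Hochberg over all genes, and a call is an adjusted p under 0.05. The gates pair through preparation because the labels put their cells in the same picking session and sex. edgeR 4.0.16 ran on the recovered reads as an alternative. Tested on simulated data, the gate fit recovered 97% of genes changed 4-fold in the Th gate. It recovered 84% of those changed 4-fold in the Pvalb gate against the Calb1 and Htr3a gates. Changed genes were drawn only from those above a minimum level, and no difference between preparations was simulated. The rates therefore need not hold for low members such as Fam19a1, Fam19a3 and Fam19a5, at means of 12.5, 7.09 and 11.5 RPM. Named genes were all 5 members, members of the 2 lists and the 5 genes most like each member. Results of some of these genes are not reported here. Members and lists were chosen with earlier results of these data known. No 2 kept columns were identical.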

Additional observations from a re-analysis of the deposited data

Results flagged for a closer look

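The level of 5 of 15 gene and gate sets over 5 preparations had 1 preparation far from the others, where chance alone gives about 1 in 20 for values without ties. For Fam19a1 in the Th and Mrgprd gates the other 4 preparations were all at 0, so any value above 0 stands apart there by construction. Session B was the highest for Fam19a4 in the Th gate (1309.6 RPM), Fam19a3 in the Pvalb gate (11.4 RPM), and Fam19a1 and Fam19a5 in the Mrgprd gate (0.150 RPM each, from 1 cell). Session C males were the highest for Fam19a1 in the Th gate (0.627 RPM). Without session B the Fam19a4 difference in the Th gate kept its call.

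Wells with more than 1 cell, which entered no comparison, had reads of each member more often than the control wells. Of 33 such wells, 6.06% had Fam19a1, 27.3% Fam19a2, 18.2% Fam19a3, 48.5% Fam19a4 and 15.2% Fam19a5. Median depth, where reads were recovered, was 3926740 reads in these wells and 2956 in the control wells. The shares were therefore not taken at equal depth.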

How the results depend on the processing

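Called differences were recomputed under every alternative. Fam19a4 in the Th gate kept its call in 19 of 19 (4.40 to 7.08), and Fam19a2 in the Pvalb gate in 18 of 19 (2.07 to 5.84), losing it only with no replicate block (2.55). Fam19a4 in the Calb1 gate kept it in 18, Fam19a5 in the Mrgprd gate in 16, Fam19a1 in the Mrgprd and Th gates in 10 and 9, and Fam19a4 in the Pvalb gate and Fam19a2 in the Mrgprd gate in 8 and 7. Fam19a3 in the Htr3a gate kept it in 9 of 17. It missed the threshold with a pseudocount of 1 (3.76), gates at 5% (1.54), no Nefh requirement (1.65), thinning (3.47), edgeR (3.86) and without session A (3.16), ranged from 2.59 to 3.16 without single preparations, and had no value with gates at 20% or without session B. Fam19a1 in the Htr3a gate was called with gates at 5% (2.56), no Nefh requirement (2.46) and a value per plate (1.90), and ran from 0.53 to 4.03 without single preparations. Fam19a5 in the Pvalb gate was called with no filter (1.01) and with cells of several gates placed in the leading gate (1.25). Fam19a2 in the Pvalb gate against the Calb1 and Htr3a gates was called in 4 of 19. Fam19a2 under cooling was not called with no filter (-3.09), thinned (-3.27) or without single preparations 2, 4 and 5 (-4.05 to -2.37).

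Values that changed sign all belonged to differences that were not called. For Fam19a5 they were, in the Th gate, centring (-0.085) and no session A (-0.11), with -0.066 to 0.30 without single preparations. In the Htr3a gate they were gates at 5% (-0.23), leading gate (-0.38), no Nefh requirement (-0.40) and thinning (-0.088). For Fam19a5 in the Pvalb gate against the Calb1 and Htr3a gates they were no session A (-0.15), with -0.068 to 0.40 without single preparations. For Fam19a4 they were, in the Tac1 gate, a pseudocount of 20 (-0.0061), gates at 20% (-1.09) and no session A (-0.075), with -0.22 to 1.20 without single preparations. For Fam19a4 in the Pvalb gate against the Calb1 and Htr3a gates they were edgeR (-0.76) and a value per plate (-0.20). The others were Fam19a3 in the Th gate with edgeR (0.79) and in the Pvalb gate at 5% (0.23), Fam19a1 in the Pvalb gate thinned (-0.060), and Fam19a2 in the Calb1 gate thinned (-1.69) and in the Htr3a gate at 20% (-0.62) and with edgeR (-0.17), with -0.37 to 0.62 without single preparations. Under cooling they were Fam19a4 in the Th gate only (-0.062), with -0.052 to 0.39 without single preparations, and Fam19a1, with -1.06 to 0.41. Between sexes they were Fam19a1 with a pseudocount of 20 (0.016) and Fam19a2 with a pseudocount of 1 (-0.019), thinned (-0.74) and in the Th gate only (-0.16). In the cooling difference between gates they were Fam19a4 (-0.059) and Fam19a5 (0.076) with a pseudocount of 1, and without single preparations the ranges were -3.18 to 1.01 for Fam19a1, -1.64 to 1.82 for Fam19a4 and -0.36 to 0.16 for Fam19a5.

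Detection rose from thinned to all reads: to 97.9% (97.2% at 50 RPM or more) for Fam19a4 in the Th gate, 90.6% (84.9%) for Fam19a2 in the Pvalb gate, 41.7% (33.3%) for Fam19a1 and 38.9% for Fam19a3 in the Htr3a gate. The share of all genes called ranged over alternatives from 2.45% to 12% (Th gate), 3.93% to 16.2% (Mrgprd), 1.54% to 13.7% (Tac1), 2.81% to 12% (Pvalb), 1.57% to 5.43% (Calb1), 0.0103% to 2.33% (Htr3a), 0.164% to 2.98% (Pvalb against Calb1 and Htr3a), 0% to 4.39% (cooling) and 0% to 0.0969% (sex). Leaving out single preparations was not possible between sexes, where no residual degree of freedom remains. Except where the construction leaves fewer samples or reads, the cause was not tested. Only 2 preparations bear on the Htr3a gate, and at session A depth 1 read is about 64.4 RPM, so low members are limited there by depth.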
